A study of Macaca mulatta with 304 samples.

Results

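The data on 9 genes of hemoglobin production were taken from a whole blood transcriptome study of rhesus macaques whose chest was irradiated. The genes were the globin genes HBA and HBB and the heme synthesis genes ALAS2, ALAD, UROS, UROD, CPOX, PPOX and FECH. They were chosen by symbol, without use of their values, and are 9 of the 21070 genes in the count table. All 9 passed the filter on low counts (3 or more counts, in 80% or more of the libraries), which left 13751 genes.

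The 28 animals were healthy adults of the Chinese sub-strain, between 3 and 5 years old at the start. The lower dose group (LD) was 12 animals, 6 of each sex, given 9.8 Gy to the thorax by linear accelerator, and the higher dose group (HD) was 16 animals, 8 of each sex, given 10.7 Gy. On Day -2, 24 blood samples were drawn as controls, 12 from each group. From Day 3 to Day 270, 272 samples were drawn on 15 scheduled days and 8 on unscheduled days. Per the labels and the study's methods, tramadol was given after irradiation, dexamethasone was given to animals with rapid breathing, and animals that met the criteria for euthanasia left the study. No unirradiated animal was followed over time, so that irradiation, care, repeated blood draws and time cannot be told apart. By Day 180 and later, 6 animals remained, and the values of those days are of survivors.

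Hemoglobin is made in developing red cells and is a tetramer of alpha and beta globin chains, each holding a heme. HBA encodes an alpha chain and HBB the beta chain. Heme is built from glycine and succinyl-CoA, partly in the mitochondrion and partly in the cytosol: ALAS2, the synthase of the red cell lineage, makes the first precursor, ALAD joins its molecules into a pyrrole, UROS closes the porphyrin ring, UROD, CPOX and PPOX modify the ring in turn, and FECH inserts iron. Mature red cells of mammals hold no nucleus and make no new mRNA, so that these transcripts in blood are mostly carried by the youngest red cells, the reticulocytes, and in part by white cells, all of which need some heme.

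The study's methods name Ribo-Zero Plus for the removal of rRNA. As background, this kit is also made to remove globin mRNA, so that the HBA and HBB counts may be of the globin mRNA that remained, and how much was removed from each library is not given in the sources used here. Library names in the labels carry a number, and the libraries fell into 3 series by it: 120 libraries with the lower numbers (series A), 34 with numbers from 190 (series B) and 150 with the number 0 (series C). The sources used here do not say what the numbers stand for. Series and day went together. Of the control libraries 20 were of series A and 4 of series C, all 28 libraries of Day 30 were of series C, and no library after Day 21 was of series A. The 4 HD animals whose control was of series C (B2003, B2005, B2503 and B2504) had every library in that series, 36 in all. Total counts were between 2840219 and 23638161 a library, and the series A median of 12313370 was above those of series B (7104570) and C (6904803).

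The genes lay on 8 chromosomes of the Mmul_10 assembly. HBA was annotated at chr20:190724-191412 on the plus strand and HBB at chr14:63067679-63069138 on the plus strand, each with 3 exons. ALAS2 was at chrX:54735685-54755120 (minus strand), ALAD at chr15:29440217-29454530 (plus), UROS at chr9:126212039-126262054 (minus) and UROD at chr1:179402519-179406168 (minus). CPOX was at chr2:177513149-177526863 (plus), PPOX at chr1:89773645-89785611 (minus) and FECH at chr18:22619513-22658037 (plus). PPOX shared 353 exon bases, 11.3% of its exons, with B4GALT3 on the opposite strand. The sources used here do not state whether counting used strand, so that part of the PPOX counts may be B4GALT3 reads. Of the 150-base words of the HBA transcript, 15.4% were also in HBA1, a second alpha globin gene on the same chromosome. HBA1 was at most 2.491 CPM (counts scaled to library size) in any day's samples, and how the counting dealt with shared reads is not stated.

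The stretches before HBA and HBB are shown since the counts of these 2 genes moved together, away from the other members, on several days. Those movements went in part with the library series, as given below, and a link to these sequences was not tested. Both are from the reference genome, not from these animals, and end at the letters CATAAA, a variant TATA box. Capitals mark matches to CCNCNCCC, which stands for the letters bound by the red cell factor KLF1, as well as the CCAAT box and the variant TATA box. The HBA stretch is chr20:190548-190663, 176 to 61 bases before the annotated start, and the HBB stretch is chr14:63067496-63067611, 183 to 68 bases before it, both in Mmul_10 on the plus strand. The annotated start lay 0 bases before the start codon for HBA, 9 for HBB and 15 for ALAS2. These may not be the starts of transcription, and all distances and windows here are counted from the annotated starts.
HBA: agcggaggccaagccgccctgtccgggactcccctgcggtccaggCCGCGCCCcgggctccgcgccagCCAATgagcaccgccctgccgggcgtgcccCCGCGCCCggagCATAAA
HBB: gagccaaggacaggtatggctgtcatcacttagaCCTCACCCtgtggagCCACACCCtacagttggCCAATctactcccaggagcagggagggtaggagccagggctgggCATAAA
Each stretch held 2 matches to CCNCNCCC, 1 CCAAT and 1 CATAAA. Over the 250 bases before the start, on both strands, CATAAA was found for HBA and HBB and for none of the other 7 members, against 8.4% of 20782 promoters, while CCNCNCCC was found for 6 of the 9 members against 54.5%, and CCAAT for 6 of the 9 against 31%. The GATA letters AGATAA or AGATAG were found for UROS and CPOX, against 21.1% of promoters for any of these and TGATAA or TGATAG. These are matches of letters only.

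Before irradiation ALAS2 was by far the most abundant of the members. Levels between genes were compared as CPM per kilobase of exon, with CPM scaled by the upper quartile of each sample. The median over the 24 controls was 2395 for ALAS2, 186.5 for HBB and 45.5 for HBA, and the order was ALAS2, HBB, FECH, HBA, UROD, CPOX, UROS, PPOX and ALAD. ALAS2 was above HBB in 24 of 24 controls and UROD above CPOX in 22 of 24. CPOX and UROS, and UROS and PPOX, were not separated, the first of each pair being higher in 13 and 14 of 24 controls. By Day 15 HBA had passed FECH (17 of 24 samples), and CPOX was last by its median, although ALAD was above it in 10 of 24 samples only. On Day 30 FECH was above HBB in 27 of 28 samples, which was the reverse of the order of the medians on each earlier day. No member differed between the later LD and HD animals before irradiation (0% of all genes called), nor between males and females (0.0654%), at the thresholds used throughout: an adjusted p of at most 0.05 by edgeR's quasi-likelihood test over all 13751 genes, and a fold of at least 1.5.

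**Figure D1:**
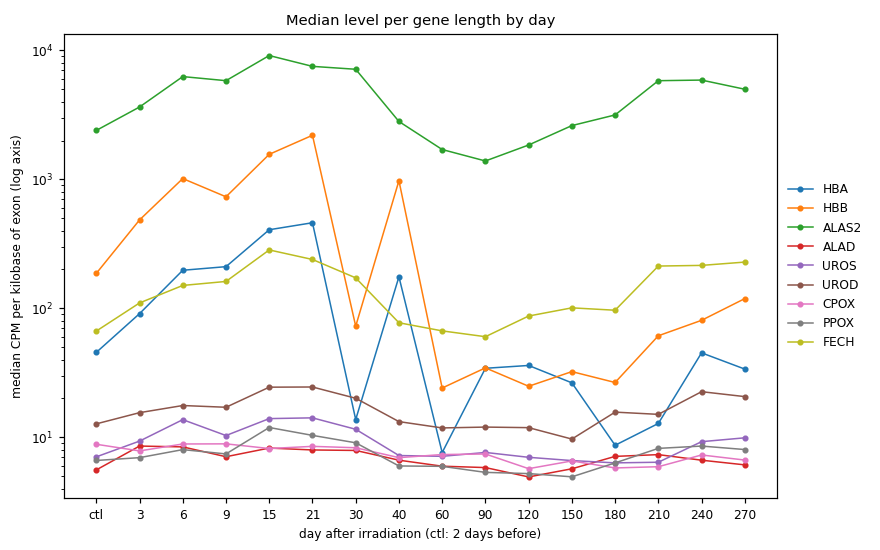
Median level of each member on each scheduled day in upper quartile scaled CPM per kilobase of exon (log axis), with Day -2 as the control. ALAS2 is highest on every day, with a control median of 2395, and HBB and HBA change places with FECH between days.

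In the first 3 weeks the globins, ALAS2 and FECH rose in these animals, UROS and UROD rose less, and ALAD, PPOX and CPOX were not called. Counts of each animal were summed over Day 3 to Day 21 and set against its own control in 24 animals. 6 of the 9 members were higher and 0 lower, when 7.53% of all genes tested were called in either direction. With only the libraries of the control's own series, 6 members were again called. The share of all genes called in that run is not given here, so that this shows only how the calls depend on the series. The median log2 change of the members was 0.67, and that of all genes tested was -0.02. In bulk blood, more or fewer cells of a type and more or less RNA in each cell cannot be told apart. Of 20 genes listed as red cell markers (membrane, enzyme and transcription factor genes other than the members) 18 were higher and 0 lower in the same comparison, and their summed level went from a median of 3227 CPM in controls (range 1108 to 8730) to 7966 CPM in the samples of Day 3 to Day 21 (range 2175 to 57250). Their part in the members' changes was not tested.

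ALAS2, the first enzyme, was measured between 859.2 and 9233 CPM in the 24 controls, with a median of 4464. On Day 15 it was between 7660 and 65860 CPM, with a median of 17000. The groups overlapped only in their ends, and 24 of 24 animals were above their own control. The log2 change was 0.79 ± 0.14 by Day 3 (SE, n = 24), 1.36 ± 0.17 by Day 6 and 1.2 ± 0.21 by Day 9. It was largest at Day 15 with 2.30 ± 0.21, followed by Day 21 with 1.89 ± 0.16 and Day 30 with 1.60 ± 0.21, all adjusted p between 2.287e-10 and 5.335e-05 by edgeR. ALAS2 took a median of 0.485% of a control library's counts and 1.71% of a Day 15 library's. Between neighbouring days the rise from Day 9 to Day 15 was called (log2 1.09 ± 0.19) and the fall from Day 30 to Day 40 was called (-1.27 ± 0.30, adjusted p = 0.002649 by edgeR). On Day 40 its change from control was 0.27 (adjusted p = 0.513 by edgeR) and on Day 90 it was -0.61 (0.158).

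FECH, the last enzyme, which inserts the iron, followed ALAS2 closely. Its control level was between 82.21 and 864.5 CPM with a median of 251.9, and its Day 15 level was between 441.9 and 4187 CPM with a median of 1073. The log2 change went from 0.71 ± 0.13 at Day 3 to 2.1 ± 0.19 at Day 15 and was still 1.28 ± 0.18 at Day 30, and all 3 were called. From Day 30 to Day 40 it fell by 1.02 on the log2 scale (SE 0.25), and on Day 60 it was -0.20 from control (adjusted p = 0.4119 by edgeR). Over Day 3 to Day 21 the change of FECH differed from that of ALAS2 by a mean of -0.19 on the log2 scale (SD 0.3107, smaller in 18 of 24 animals, adjusted p = 0.00454 by a sign-flip permutation test, two-sided, over 8 members).

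HBB and HBA had the largest early changes of the members, from far lower levels. HBB was between 3.639 and 326.5 CPM in controls with a median of 87.84, and between 20.58 and 5352 CPM on Day 21 with a median of 1034. HBA was between 1.54 and 70.68 CPM in controls with a median of 19.52, and between 6.985 and 1029 CPM on Day 21 with a median of 197.6. The groups overlapped for both genes, but each of the 24 animals was above its own control on Day 21. The lowest animals on Day 21 were the 4 with series C libraries throughout, with HBB between 20.58 and 59.91 CPM. The log2 changes on Day 3, Day 15 and Day 21 were 1.37 ± 0.28, 2.90 ± 0.28 and 3.22 ± 0.23 for HBB and 1.23 ± 0.33, 3.08 ± 0.25 and 3.25 ± 0.18 for HBA, all called.

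Set against ALAS2 in the same animals, the globins changed more. The early log2 change of HBA exceeded that of ALAS2 by 1.00 (SD 0.71) in 23 of 24 animals, and that of HBB by 0.89 (SD 0.82) in 21 of 24. The adjusted p-values were 1.33e-05 and 2.29e-05 by the permutation test, 1e-05 before adjustment being the smallest it can give. In the 4 animals of series C throughout, the HBB counts per ALAS2 count did not follow this: the median log2 ratio was -8.63 in their controls and -8.45 on Day 21, against -5.01 in the 20 series A controls and -3.66 in the other 24 animals on Day 21. Those Day 21 libraries were of all 3 series. The 12 of LD, all of series A, were between -4.55 and -3.65, and those of HD, of series B or C, between -4.504 and -2.425. Some of these HD animals had no control. HBA went otherwise than HBB in the 4 animals of series C throughout. Its log2 counts per ALAS2 count were between -11.59 and -10.25 in their controls and between -11.35 and -9.51 on Day 21. Each of the 4 animals was higher on Day 21. Their control counts of HBA were low, between 11 and 26. The difference from ALAS2 was not tested within 1 series.

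UROS and UROD, which act in the middle of the pathway, rose less than ALAS2. UROS was between 33.65 and 129.4 CPM in controls (median 50.7) and between 40.92 and 356.6 CPM on Day 15 (median 100.4). UROD was between 12.55 and 34.95 CPM in controls (median 20.1) and between 18.51 and 139.4 CPM on Day 15 (median 38.71). Both were called on Day 15, Day 21 and Day 30, with log2 changes of 0.94 ± 0.12, 0.84 ± 0.09 and 0.71 ± 0.10 for UROS and 1.05 ± 0.12, 0.86 ± 0.10 and 0.67 ± 0.13 for UROD, and neither was called on Day 3, Day 6 or Day 9.

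PPOX, ALAD and CPOX, each with a control median near that of UROD, parted. PPOX had a median of 20.71 CPM in controls and 37.29 CPM on Day 15 and was called on Day 15 and Day 21 (log2 0.80 ± 0.09 and 0.63 ± 0.08), with the B4GALT3 overlap noted above. ALAD had a median of 18.47 CPM in controls and 28.26 CPM on Day 3, when it was above the own control in 24 of 24 animals, and was called on that day only (0.62 ± 0.06, adjusted p = 2.907e-09 by edgeR). CPOX had a median of 23.86 CPM in controls, 21.19 at Day 3, 22.12 at Day 15 and 22.99 at Day 21. Over Day 3 to Day 21 its log2 change was -0.04 ± 0.04, with 9 of 24 animals above their control. ALAD (0.46 ± 0.06) and PPOX (0.41 ± 0.07) had small adjusted p over that window (5.984e-07 and 1.115e-05 by edgeR) but were under the fold of 1.5. All 5 of these middle enzymes changed less than ALAS2, with a mean difference between -0.97 (UROD) and -1.68 (CPOX) on the log2 scale, each in at least 23 of 24 animals (adjusted p = 1.33e-05 by the permutation test).

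By day, 5 members were called at Day 3 (ALAD, HBA, HBB, ALAS2 and FECH) against 11.5% of all genes (6.89% higher), and the latter 4 at Day 6 (11.5%, 6.04% higher) and Day 9 (7.58%, 5.15% higher). At Day 15 and Day 21 there were 7 members (with UROS, UROD and PPOX), against 6.01% of all genes (5.11% higher) and 10.4% (7.65% higher). All these calls were higher than control. Of the steps between neighbouring days, Day 6 against Day 3 had HBA and HBB called (2.39% of all genes), Day 9 against Day 6 had none (4.60%), Day 15 against Day 9 had 5 higher (HBB, ALAS2, FECH, UROD and PPOX, 2.86%) and Day 21 against Day 15 had none (1.04%).

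**Figure D2:**
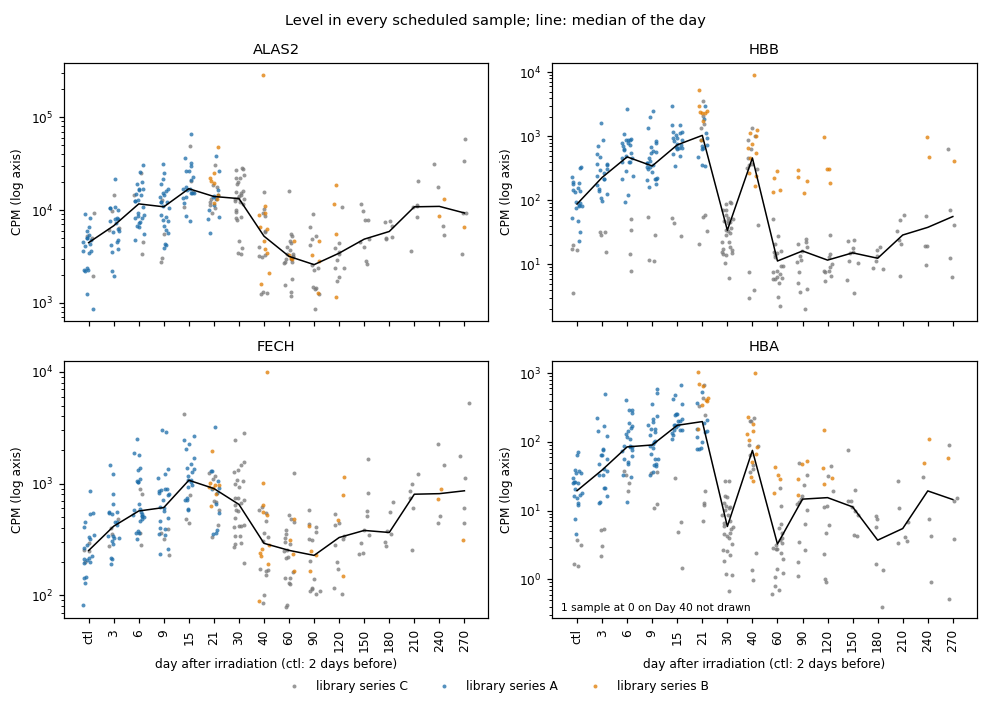
Level of ALAS2, HBB, FECH and HBA in every scheduled sample by day (points) and the median of the day (line), in upper quartile scaled CPM on a log axis, coloured by library series. The median of HBB is 34.22 CPM on Day 30 (all series C) against 87.84 in controls, while that of ALAS2 is 13310 CPM against 4464. The HBA sample at 0 on Day 40 is not drawn but is counted in the median.

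**Figure D3:**
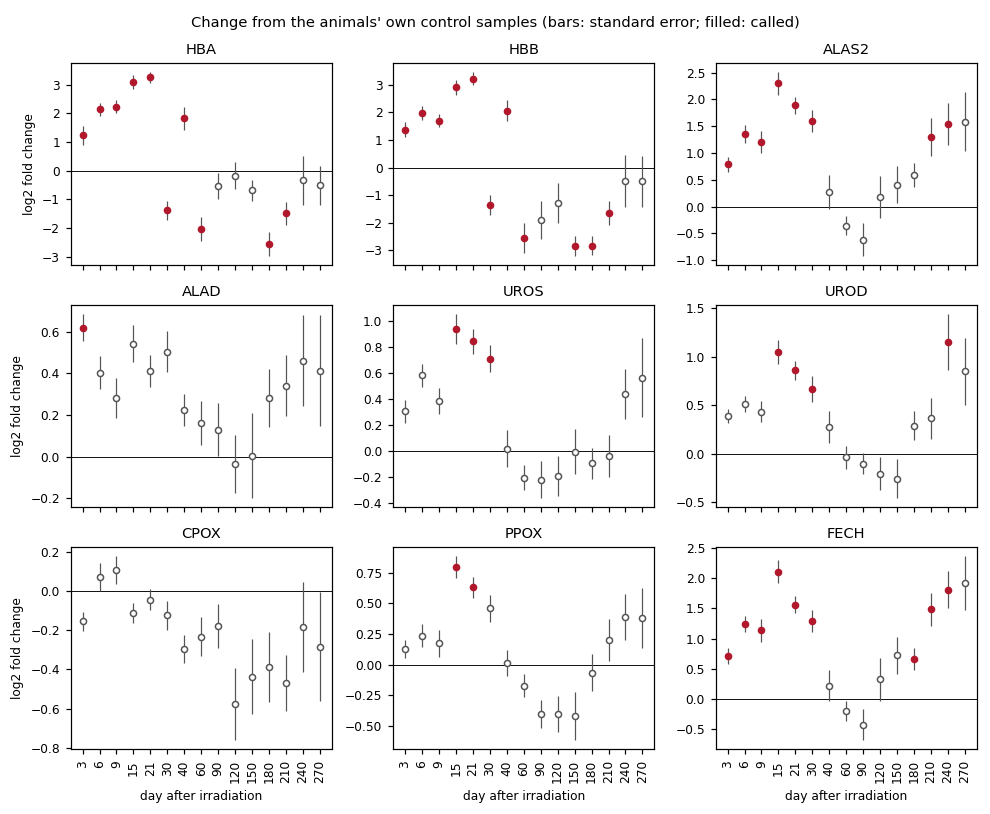
Log2 change from the animals' own controls on each scheduled day for each member, with the standard error as bars and filled points for called changes. ALAS2 and FECH peak on Day 15 at 2.30 and 2.1, and HBA and HBB turn from 3.25 and 3.22 on Day 21 to -1.39 and -1.36 on Day 30.

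From Day 30 to Day 60 the globins parted from ALAS2 and FECH. HBB was between 6.048 and 93.78 CPM on Day 30 (median 34.22), between 3.021 and 9134 CPM on Day 40 (median 459.6) and between 2.265 and 289 CPM on Day 60 (median 11.34). HBA had medians of 5.884, 75.27 and 3.263 CPM on the same days. Against control, Day 30 had 4 members higher (ALAS2, FECH, UROS and UROD) and 2 lower (HBA at -1.39 ± 0.34 and HBB at -1.36 ± 0.35), when 5.90% of all genes were called (4.57% higher, 1.33% lower). Day 40 had HBA and HBB higher (1.82 ± 0.40 and 2.06 ± 0.39; 6.92% of all genes, 4.07% higher), and Day 60 had HBA and HBB lower (-2.04 ± 0.43 and -2.54 ± 0.54; 4.23% of all genes, 2.31% higher and 1.92% lower). From day to day the log2 steps of HBA and HBB were -4.94 and -4.86 from Day 21 to Day 30 (the only 2 members called, 7.09% of all genes), 3.23 and 3.66 from Day 30 to Day 40 (with ALAS2, FECH and UROS lower, 4.96%) and -3.83 and -4.63 from Day 40 to Day 60 (2.66%).

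These globin steps went with the library series in part, and were also seen between libraries of series C. In log2 counts of HBB per count of ALAS2, series A was between -6.98 and -1.71 (median -4.48), series B between -5.24 and -1.90 (median -3.38) and series C between -10.0 and -2.1 (median -8.44). All 28 libraries of Day 30 were between -9.75 and -7.50, and the 36 libraries of the 4 animals with series C throughout were between -9.05 and -5.78 on every day, controls included. From Day 21 to Day 30 the ratio was lower in 24 of 24 other animals, by a log2 difference between -5.87 and -3.72, and in the 4 animals it differed by between -0.20 and -0.05. The series is not a full divide: series C libraries of other animals on Day 21 (n = 4) and Day 40 (n = 9) were between -3.10 and -2.54 and between -4.06 and -2.1. The 4 animals of these Day 21 libraries (B2002, B2006, B2502 and B2508) fell within series C, to between -8.34 and -7.50 on Day 30. From Day 30 to Day 40 the ratio rose in 20 of 20 other animals, by between 3.12 and 6.98. In the 9 named above this was within series C. The cause of the steps was not tested.

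Against control, the Day 30 result turned within 1 series. In the 4 animals whose control and Day 30 libraries were both of series C, HBB was higher on Day 30 by 1.38 (log2, adjusted p = 0.02487 by edgeR) and HBA by 1.08 (adjusted p = 0.14), and on Day 40 HBB was at -0.54 (0.5177) and HBA at -1.11 (0.3547). Only these 4 animals had a control of series C. Their values do not cover the other animals, whose HBB per ALAS2 also fell and rose within series C, as given above. Without these 4 animals, HBB on Day 30 was at -1.83 (adjusted p = 5.135e-05 by edgeR, n = 20), a comparison of series C libraries with series A controls throughout. In 1 fit over all days with the series as a term, HBB on Day 30 was at 0.16 (adjusted p = 0.8983 by edgeR) and HBA at -1.27 (0.1196). For ALAS2 the 4 animals alone gave a call on Day 30 and so did the fit with the series (1.56, adjusted p = 0.002856 by edgeR). From Day 60, day and series cannot be told apart for most animals: the 15 series B libraries of Day 60 and later were between -5.24 and -1.90 in HBB per ALAS2, and the series C libraries of Day 30 or of Day 60 and later were between -10.0 and -3.85.

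Other red cell transcripts of the same libraries differed less between the series. The log2 counts per ALAS2 count had medians of -3.93, -3.89 and -3.85 (A, B, C) for FECH, -6.33, -6.27 and -6.83 for HBM (an alpha-like globin), and -7.57, -7.36 and -7.20 for AHSP, the chaperone of free alpha globin. On Day 30 HBM was higher than control by 0.96 ± 0.24 and AHSP by 1.85 ± 0.18 (adjusted p = 0.003758 and 3.582e-08 by edgeR), when HBA and HBB were lower. HBQ1, another alpha-like globin, was at 0.32 (adjusted p = 0.2916). All of these comparisons use the same control samples, so that they are not independent of each other.

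**Figure D4:**
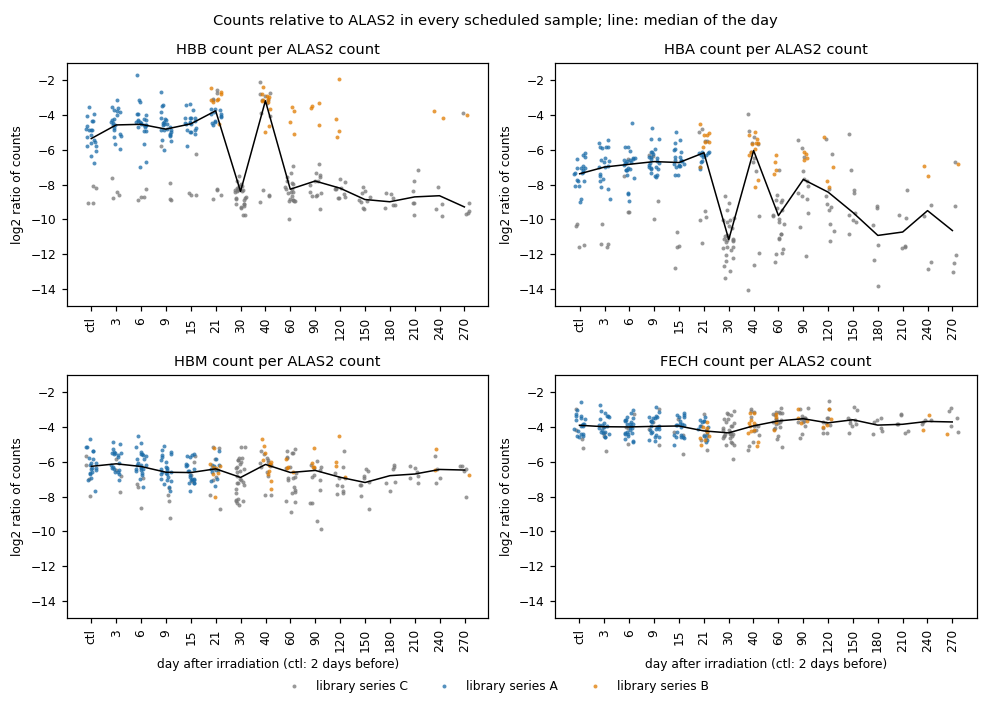
Log2 counts of HBB, HBA, HBM and FECH per count of ALAS2 in every scheduled library by day, coloured by library series. The 28 Day 30 libraries lie between -9.75 and -7.50 for HBB, far below most series A and B libraries, while FECH per ALAS2 has medians of -3.93, -3.89 and -3.85 in series A, B and C.

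On Day 90 and Day 120 no heme enzyme was called, and in the animals that lived longest ALAS2 and FECH were higher again on Day 210 and Day 240. No member was called on Day 90 (7.06% of all genes, 3.87% higher) or Day 120 (31.8%), HBB alone was called, lower, on Day 150 (31.5%), and no member was called on Day 270 (0.00727%, which is 1 gene, with 4060 genes at an unadjusted p under 0.05 and 2383 called by DESeq2). The steps Day 90 against Day 60 and Day 120 against Day 90 had no member called (0.320% and 15.5% of all genes). At Day 180 FECH was higher (0.67 ± 0.18) and HBA and HBB lower (18.7%). At Day 210 ALAS2 and FECH were higher and HBA and HBB lower (29.8%). At Day 240 ALAS2, FECH and UROD were higher (6.76%). In the 6 animals that reached Day 270, ALAS2 was between 2246 and 5436 CPM before irradiation (median 4464), between 3587 and 20470 CPM on Day 210 (median 10850) and between 5427 and 31450 CPM on Day 240 (median 10970). The groups overlapped, and 6 of 6 animals were above their own control on Day 240. The changes were 1.31 ± 0.35 and 1.54 ± 0.40 (adjusted p = 0.01167 and 0.04284 by edgeR, n = 6), with FECH at 1.48 ± 0.27 and 1.81 ± 0.31. The Day 240 call of ALAS2 was lost with TMM scaling (adjusted p = 0.06273 by edgeR), with limma on the deposited log2 values (0.05052) and without B1003, B1004, B1503 or B1505 (0.05605 to 0.1422), while FECH was called in each of these. That of UROD was lost with limma and without B1003, B1004, B1503 or B2502. On Day 270 ALAS2 was at 1.59 ± 0.55 (0.09968) and FECH at 1.91 ± 0.44 (0.07507), not called, with 6 of 6 animals above control for ALAS2. These tests rest on 6 animals.

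On Day 150, Day 180 and Day 210 every library was of series C, so that late globin changes and series cannot be told apart. HBB on Day 150 was between 3.616 and 23.88 CPM and on Day 180 between 8.509 and 18.96 CPM, all libraries being of series C and the controls of these animals of series A. The log2 changes were -2.85 ± 0.36 and -2.84 ± 0.34 for HBB, and on Day 180 -2.56 ± 0.43 for HBA. On Day 240, when 2 libraries were of series B, HBB was at 484.4 and 967.8 CPM in these and between 9.911 and 56.31 CPM in the 4 of series C. Day 270 did not follow this: the series B library had HBB at 413.7 CPM and HBA at 57.9 CPM, and the series C library of B1505 was above it with 645.4 and 88.78 CPM. Over all draws after Day 90 HBB was lower (log2 -1.46 ± 0.57, adjusted p = 0.0368 by edgeR, 32.5% of all genes called), a call lost with TMM scaling. Over the draws after Day 21 to Day 90 ALAS2 and HBB were higher (0.69 ± 0.25 and 0.86 ± 0.30; 5.75% of all genes), and HBB was at -0.71 when the deposited log2 values were tested by limma.

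No difference between the doses was called for any member in the first 3 weeks. The doses were not matched in library series. All LD libraries up to Day 21 were of series A. The 16 HD libraries of Day 21 were of series B or C, and the 4 animals of series C throughout were all HD. Dose and series can therefore not be fully told apart in these values. The difference between the log2 changes of HD and LD over Day 3 to Day 21 was -0.05 ± 0.30 for ALAS2, -0.17 ± 0.26 for FECH, -0.49 ± 0.30 for HBA and -0.69 ± 0.40 for HBB, each with an adjusted p of at least 0.8603 by edgeR, and no gene was called (0%). At an unadjusted p under 0.05 there were 761 genes, and 0 genes were called by DESeq2 and 1 by limma. For each single day up to Day 30, no member and no gene was called (0%), and on Day 40 no member (0.0364%). The difference between males and females in the early change was -0.02 ± 0.30 for ALAS2, -0.72 ± 0.28 for HBA and -0.47 ± 0.41 for HBB, and none was called (0%).

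On Day 60 2 members differed between the doses, HBA (HD less LD, -2.83 ± 0.65, adjusted p = 0.002355 by edgeR, n = 21) and CPOX (-0.68 ± 0.15, adjusted p = 0.001388), when 23.1% of all genes were called, so that 2 of 9 members is near the share of all genes. In the same comparison 8 of 9 neutrophil markers and 6 of 10 monocyte markers were higher in HD and 8 of 10 B cell markers lower, and their part in the members' values was not tested. HBA was between 18.07 and 42.73 CPM in the 4 LD libraries of series B, between 1.965 and 21.14 CPM in the 8 of series C (median 3.69), and between 0.6054 and 11.75 CPM in the 12 HD libraries, all of series C (median 1.931). CPOX was between 20.1 and 37.4 CPM in the LD libraries and between 10.14 and 19.63 CPM in the HD libraries, with no overlap, also within series C (20.89 to 37.4 CPM). With DESeq2, CPOX had a change of -0.57 (adjusted p = 0.000652), under the fold of 1.5. HBB was not called (-1.22 ± 1.02, adjusted p = 0.385 by edgeR).

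The members' courses over all samples were not equally alike. With each animal's mean removed, Pearson's r of log2 CPM was 0.97 between ALAS2 and FECH, 0.90 between ALAS2 and UROS, and 0.88 between HBA and HBB. HBB and ALAS2 were at 0.59, with 0.85 in series A alone and 0.55 in series C alone. CPOX was at 0.13 to 0.37 with each of the others, but in series A alone it was between -0.21 (ALAD) and 0.03 (PPOX), below 0 with 7 of the 8. HBA and ALAS2 were at 0.52 over all samples and at 0.87 in series A. These are descriptions: the samples share animals, libraries and scaling.

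**Figure D5:**
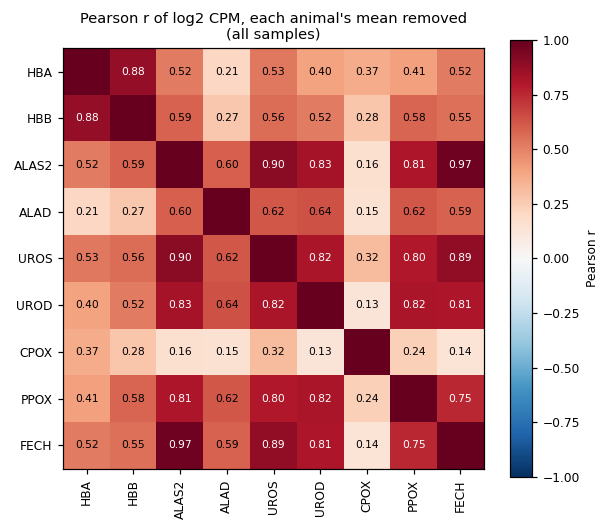
Pearson's r between the members over all samples, computed from log2 CPM after each animal's mean was removed. ALAS2 with FECH is at 0.97 and HBA with HBB at 0.88, while CPOX is at 0.13 to 0.37 with the others.

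Among the other 13742 genes, those most like each member were listed by the same measure. For ALAS2 they were PAQR9 (0.99), ACSL6 and EPB42, and for FECH TRAK2 and EPB41 (0.98 each), and EPB42 and EPB41 are genes of the red cell membrane. For UROS they were SLC25A38, the mitochondrial glycine carrier, ACP1 and BABAM1 (0.91 to 0.93), for UROD UBAC1 and PEX19 (0.89 to 0.90), and for PPOX P4HTM, ABCB10 and PC (0.87 to 0.88). Over all samples the globins were less well matched, HBB with RPL12 at 0.81, STIL at 0.79 and CEP295 at 0.78, and HBA with CEP295 at 0.71, STIL and CSE1L. These values differed by series. In the same order, the HBB partners were at 0.64, 0.87 and 0.78 in series A and at 0.7, 0.67 and 0.61 in series C. The HBA partners were at 0.78, 0.79 and 0.4 in series A and at 0.4, 0.46 and 0.53 in series C. For ALAD they were DNASE2 at 0.75, AGPAT3 and CD99L2, and for CPOX PDCD4 at 0.76, LARS and WDR89. In series A alone the 3 CPOX partners were at 0.31, 0.11 and 0.34. The median r over all 13742 genes was between -0.08 and 0.14.

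Other genes of heme and iron handling rose as well in the first 3 weeks, each list with its own count. Among the other genes of heme synthesis and its mitochondrial carriers 5 of 8 were higher and 0 lower (median log2 0.60), with TMEM14C, a porphyrin carrier, at 0.73, and with ALAS1, the synthase of other tissues, at -0.19 and not called. Iron uptake and iron-sulfur assembly had 4 of 10 higher and 0 lower (median 0.26), with GLRX5 at 1.58, and NFS1 at -0.13 not called. Heme breakdown, export and iron storage had 5 of 12 higher and 0 lower (median 0.46), led by BLVRB (1.38), a reductase, and FBXO7 (1.09), with HMOX2, a heme oxygenase, at -0.09 not called. The heme and iron sensors had 3 of 7 higher and 0 lower (median 0.16), NCOA4, the ferritin receptor of autophagy, at 1.17 and HEBP1 at 0.66, with ACO1 at 0.01. Of 11 further globins and partners, 9 were in the table and 3 passed the filter, and all 3 were higher: AHSP at 1.62, HBM at 1.52 and HBQ1 at 1.26. The share of all genes called was 7.53% in either direction.

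After Day 90 fewer genes of these lists were called, and the genes named here were chosen after their values were seen. Of the 8 other genes of heme synthesis and its carriers 1 was higher, ALAS1 at 0.76 ± 0.16 (adjusted p = 0.0006108 by edgeR), and 0 were lower, 2 of 10 iron uptake and iron-sulfur genes were higher (SLC25A37 at 1.41, STEAP3 at 0.81), 2 of 12 breakdown and export genes (FLVCR2 at 1.36, SLC40A1 at 0.85) and 3 of 7 sensors (HEBP1, BACH1 and NCOA4), when 32.5% of all genes were called. Markers of other cells moved in the same comparison: 7 of 9 neutrophil, 8 of 8 platelet and 6 of 10 monocyte markers were higher, and 10 of 10 B cell, 5 of 9 T cell and 1 of 10 monocyte markers lower. Their part in these changes was not tested. Red cell markers were higher for 11 of 20 genes after Day 90 and for 12 of 20 from after Day 21 to Day 90.

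Markers of other blood cells moved too in the first 3 weeks. Of 8 platelet markers tested 5 were higher, of 10 B cell markers 9 were lower, of 10 monocyte markers 4 were higher and of 9 neutrophil markers 1 was higher, while of 9 T cell markers none was called. Platelet markers summed to a median of 1732 CPM in controls (871.9 to 4786) and 2667 CPM early (603.1 to 9963), and B cell markers to 1562 CPM (376.5 to 2705) and 697.1 CPM (218.8 to 1882). Their part in the members' values was not tested.

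Single samples stood far out. In animal B2007 on Day 40 ALAS2 was at 286600 CPM with upper quartile scaling. It took 963883 of 8874096 counts or 10.9% of the library, so that the scaling put CPM well above the share of counts. In scaled CPM FECH was at 9927, UROD at 284.8, UROS at 341.6, HBB at 9134 and HBA at 1009, each the highest of the day. CPOX was at 19.33 CPM, near its Day 40 median of 18.79, but this holds for scaled CPM only. Its 65 counts were the lowest CPOX count of Day 40, in the library with the highest total of that day. UROS had 1149 counts, when the highest UROS count of the day was 1160. In animal B2003 on Day 40 no count of HBA was found in 7502091, where 3 counts would be 0.432 CPM. The 8 unscheduled draws, all of series C, had ALAS2 between 1024 and 9405 CPM and HBB between 3.935 and 21.24 CPM, and ALAS2 was below the previous scheduled draw of the same animal in 3 of 8.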

How the data were processed

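Whole blood RNA of 28 animals was sequenced. Per the study's methods, RNA was extracted without separating plasma, rRNA was depleted (Ribo-Zero Plus), and stranded libraries were made. The authors trimmed reads with cutadapt, aligned them with STAR 2.7.6a to Mmul_10 and deposited raw read counts per gene made with Subread 2.0.1, and a table of normalized log2 values of 16730 genes. No column of either table was left unused for want of a sample.

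The counts were tested with edgeR 4.0.16 (R 4.3.3), with upper quartile scaling, a filter that kept genes reaching 3 counts in 80% of libraries, and the animal as a block, since samples with 1 animal number come from the same animal. Counts of an animal were summed over Day 3 to 21, after Day 21 to Day 90, and after Day 90. A gene was called where its p, adjusted by Benjamini-Hochberg over all 13751 genes, was 0.05 or less and its fold 1.5 or more. The SE is the log2 change divided by the root of the quasi-likelihood F. The difference from ALAS2 was tested by permutation of signs (NumPy 2.4.6, with SciPy 1.17.1 for the adjustment). Members, lists and tests were chosen with earlier results of these data known. All 9 members were named. From each pathway list the 2 genes with the largest and the 1 with the smallest early log2 change were named. A few genes that these rules select are not reported here.

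The alternatives were TMM scaling, DESeq2 1.42.0, no filter, limma 3.58.1 on the deposited log2 values, no block, 1 library series only, a fit with the series, the 6 animals followed to Day 270, and leaving out each animal. Leaving out the 4 animals of series C throughout was added after seeing the data. On simulated data for Day 15 (24 animals), 200 of 200 genes changed 3-fold were recovered by edgeR, with 0 false calls. For Day 270 (6 animals), edgeR recovered 155 of 200 with 6 false calls, and DESeq2 177 with 24 false calls.

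Counts from sequenced reads limit the precision, and the floor of 3 counts covers counting error only. Samples of an animal are repeated draws, and the n given is of animals unless libraries or samples are named.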

Additional observations from a re-analysis of the deposited data

Results flagged for a closer look

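Of 45 groups of 6 or 9 samples (each member on Day 150, 180, 210, 240 and 270), 8 held a sample far from the others. The rule used flags about 1 in 20 groups of normal, independent values. Here CPM without logs were used, and the members share the same animals, so that 1 in 20 is no measure of chance for these groups. On Day 150 FECH was at 1647 CPM in animal B1505, the next highest being 822.6, and HBA at 77.14 CPM in B1502, the next highest being 20.09. CPOX on Day 180 was at 29.78 CPM in B1003 against 16.86 for the next. HBA on Day 210 was at 26.67 CPM in B1505 against 11.03. Animal B2502, the only animal of the 10.7 Gy group from Day 150 on, stood apart 4 times, with ALAD at 58.07 CPM on Day 240 (next 23.39) and, on Day 270, ALAD at 70.47 (next 24.27), FECH at 5251 (next 1756) and UROS at 244.7 CPM (next 90.24).

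The change by Day 60 differed between the doses for CPOX (HD less LD, log2 -0.68, adjusted p = 0.001388 by edgeR) and for HBA (-2.83, adjusted p = 0.002355), when 23.1% of all genes were called and white cell markers differed too (8 of 9 neutrophil markers higher in HD, 8 of 10 B cell markers lower). All 12 HD libraries of that day were of series C, and 4 of the 12 LD libraries were of series B. The part of the library series was not tested.

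HBA1, which was not a member, reached 2.491 CPM on Day 15, and its highest control value was 0.2799 CPM.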

How the results depend on the processing

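Of the alternatives to the members' changes from control, 752 kept direction and side of the threshold, 24 came to pass it, 49 no longer passed it and 25 turned direction. Where no cause is given, the cause was not tested. Counts of members called are given here without the share of all genes called in the same run. They show how the calls depend on the processing and are no result about the members. Over Day 3 to Day 21, 6 members were called in each alternative run, except 5 without the 4 animals of series C throughout.

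With the animal as the block left out (no pairing of samples), the members called were 5 on Day 40, 1 on Day 60, 0 after Day 90, 0 for Day 6 against Day 3 and 2 for Day 40 against Day 30, and the log2 changes turned to 0.57 (HBA) and 0.64 (HBB) on Day 120, 0.63 and 1.21 on Day 240, 0.46 and 0.82 on Day 270, and 0.30 for ALAS2 from Day 30 to Day 40. In the 6 animals followed to Day 270, a smaller number by construction, 1 member was called on Day 3, 2 on Day 6, 0 on Day 9, Day 30 and Day 60, and 2 on Day 150, and FECH on Day 90 was at 0.04. Within 1 library series 0 were called on Day 40 and from after Day 21 to Day 90, and 1 each for Day 21 against 15, Day 30 against 21 and Day 60 against 40. There HBA and HBB turned to 1.08 and 1.38 on Day 30, and ALAS2, FECH, HBA and HBB to -0.63, -0.61, -1.11 and -0.54 on Day 40. In 1 fit with the series 1 was called on Day 90, 1 on Day 180 and 4 on Day 270, and HBB was at 0.16 on Day 30 and 0.94 on Day 270.

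DESeq2 called 1 on Day 90, 2 on Day 150, 2 on Day 270 and 1 for Day 21 against 15. Without the filter these were 1, 2, 1 and 1. Limma on the deposited log2 values called 1 on Day 90, 1 on Day 240, 0 from after Day 21 to Day 90, and 1 each for Day 6 against 3 and Day 21 against 15, with HBA and HBB at -0.63 and -0.71 from after Day 21 to Day 90. TMM scaling called 0 after Day 90 and 1 for Day 21 against 15, and without the 4 animals of series C throughout 1 was called on Day 90.

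Leaving out each animal, the lowest HBA and HBB changes were -1.03 and -1.24 at Day 240 (without B1003) and -1.09 and -1.26 at Day 270 (without B1505). It gave 1 to 3 members on Day 150 (2 without B1501, 3 without B1502), 1 to 3 on Day 240 (1 without B1003, B1004 or B1503, 2 without B1505 or B2502) and 0 to 1 on Day 270 (1 without B1003). HBA on Day 240 turned to 0.32, 0.08 and 0.32 without B1004, B1502 and B2502, HBB to 0.28 and 0.04 without B1502 and B2502, and on Day 270 HBA turned to 0.06 without B1004 and HBB to 0.14 and 0.25 without B1004 and B1502. None of these globin changes was called. Of the early dose differences, ALAS2 was at 0.07 and UROS at -0.06 without the 4 animals, and UROD at -0.01 by limma and -0.02 within 1 series, and of the early sex differences ALAS2 was at 0.26, CPOX at 0.03 and FECH at 0.08 without the 4 animals. With Spearman's rho, TMM scaling or series C alone, 11 correlations between members moved, all 11 in series C alone, and 97 did not. Series A alone was not part of this count and moved several of them.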
